A study of Sus scrofa with 16 samples.

Results

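The genes described are collagens, other structural and matricellular proteins of the extracellular matrix, and the enzymes and inhibitors that modify or cut the matrix. They were chosen by gene name on a pig 1-colour array: names beginning with COL and a number, LOX, PLOD, TIMP, MMP and a number, ADAMTS, FBLN or FBN, and the single names FN1, ELN, SPARC, LUM, DCN, BGN, POSTN, THBS2, TNC and CYR61. In all, 86 probes under 35 gene names matched, and 78 probes of 28 genes were well above background on at least 8 arrays, out of 32216 probes kept on the whole array. The 32088 probes that could be fitted covered 4149 named genes. The tissue was subcutaneous fat of 16 pigs at 20 kg body weight, fed freely: 8 from a low residual feed intake line (low-RFI) and 8 from a high residual feed intake line (high-RFI), both made by selection, with RNA of 1 pig per array. Residual feed intake is the feed eaten beyond what growth and maintenance predict, and the study asked what selection on it does to gene expression in fat. The replicate numbers of both lines were compared as 2 sets, 5 to 8 and 1 to 4. What, if anything, separates the sets is not stated in the labels, and each of the 4 slides held 1 array of every line and set.

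Fat cells sit in a basement membrane and are held in a scaffold of fibrillar and beaded-filament collagens. Fibroblasts and preadipocytes secrete most of this scaffold, and it is rebuilt as the fat depot grows. Collagen chains are hydroxylated, folded and cross-linked, and the finished matrix is cut by matrix metalloproteinases, which TIMPs inhibit.

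Between 68.7% and 80.3% of the spots on an array were well above background, no spot was saturated, and pairs of arrays correlated at 0.944 to 0.989 across probes. Of the adipocyte markers looked for, 9 of 10 were measured, and PLIN4 had no probe under that name. Marker lists set some arrays apart. Skeletal muscle markers averaged 7.89 on low-RFI replicate 8 and 1.39 on low-RFI replicate 6 (log2, each gene centred on its mean over arrays), epithelial markers 3.31, 1.90 and 1.52 on high-RFI replicates 6, 2 and 7, and macrophage markers 1.35 on high-RFI replicate 5. Results are also given without low-RFI replicate 8 and high-RFI replicates 2, 5 and 6 where these change a call. These 4 arrays, named below as those that stand apart, do not follow a common cut-off on the lists. Low-RFI replicate 6 and high-RFI replicate 7 stayed in, although their values exceed the 1.35 of high-RFI replicate 5. So did low-RFI replicate 4, at 1.35 on a chondrocyte, bone and tendon list, and low-RFI replicate 1, at 1.11 on smooth muscle markers.

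A signal is the log2 of the processed intensity minus the 75th percentile of its array, so 0 is that percentile. Levels of different probes cannot be ranked against each other, because each probe binds with its own strength. Several genes had more than 1 probe, up to 11 for COL14A1, and the gene is represented by the fitted probe with the highest mean. The spread between spots of an array can be read from probes that carry the same sequence under 2 names, a check chosen after the values were seen. Each sequence below is the 60-base probe, 5′ to 3′, and capitals mark bases shared with another probe of the same gene.
COL6A2, both probes: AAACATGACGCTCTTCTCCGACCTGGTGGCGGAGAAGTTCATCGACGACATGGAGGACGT
COL6A3, 2 of 6 probes: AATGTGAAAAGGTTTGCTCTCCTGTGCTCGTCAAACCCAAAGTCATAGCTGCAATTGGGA
SPARC, 2 of 7 probes: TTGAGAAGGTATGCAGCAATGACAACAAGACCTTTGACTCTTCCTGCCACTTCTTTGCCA
TIMP1, first overlapping probe: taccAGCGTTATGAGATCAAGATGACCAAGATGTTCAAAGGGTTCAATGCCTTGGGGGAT
TIMP1, second overlapping probe: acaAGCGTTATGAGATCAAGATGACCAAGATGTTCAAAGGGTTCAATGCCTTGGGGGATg
The difference between the like probes had an SD over the 16 arrays of 0.061 for COL6A2, 0.086 for COL6A3 and 0.068 for SPARC. The TIMP1 pair is shifted by 1 base and differs by C4A, counted from the 5′ end of the first probe, and its difference had an SD of 0.062. By comparison, the SD of 1 probe over the 16 pigs was 0.33 and 0.30 for the COL6A2 probes, 0.36 for either of these TIMP1 probes and 0.16 and 0.15 for the SPARC probes, so most of the spread for COL6A2 and TIMP1 lay between arrays and not between spots. With 1 array per pig, differences between pigs and between labellings or hybridisations cannot be told apart.

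**Figure D1:**
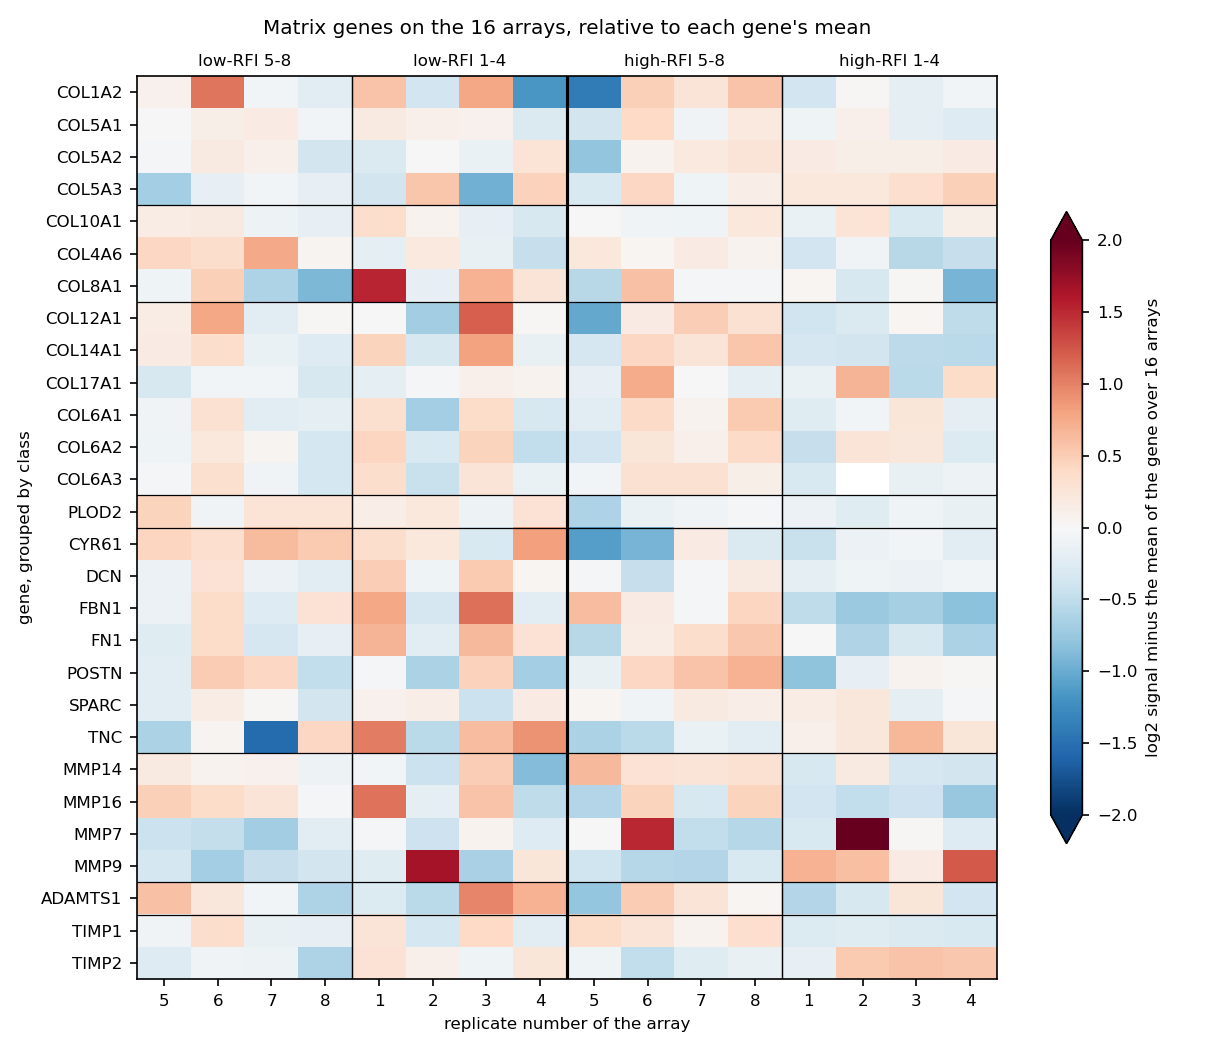
Signal of the 28 matrix genes (rows, grouped by class) on the 16 arrays (columns, by line and replicate number), as log2 minus the mean of the gene over all arrays. The blank cell is a spot marked as an outlier, and MMP7 stands out on high-RFI replicates 2 and 6, MMP9 on low-RFI replicate 2 and COL5A2 (4.75 before centring) on high-RFI replicate 5.

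The comparison of the lines asked whether matrix genes differ in fat of low-RFI pigs. No matrix probe passed: 0 of the 76 probes that could be fitted, against 0 of 32088 on the whole array (0.0%), were called by limma with the adjusted p below 0.05. Before adjustment, 5 matrix probes had p below 0.05, all higher in low-RFI pigs, against 3.62% of all probes, with 1.85% higher and 1.77% lower. The 5 belong to CYR61, PLOD2 and MMP16. No fitted matrix probe separated the lines without overlap, as 0.00623% of all probes did. The median difference over the 76 probes was 0.07, low-RFI minus high-RFI on the log2 scale, against 0.004 over all probes tested.

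CYR61, a matricellular protein also known as CCN1 that binds integrins and is induced quickly by growth factors and stretch, had the smallest p. Its brightest fitted probe ranged from -1.09 to 0.04 in low-RFI pigs, with a median of -0.38, and from -1.88 to -0.61 in high-RFI pigs, with a median of -1.03. Of the low-RFI pigs, 7 lay above every high-RFI pig, and low-RFI replicate 3 lay within the range of the high-RFI pigs. The mean was -0.40 ± 0.34 in low-RFI and -1.15 ± 0.44 in high-RFI pigs (SD, n = 8 each). The difference was 0.75 (SE 0.19, 1.69-fold, unadjusted p = 0.000933, adjusted p = 0.9997 in limma). The other fitted CYR61 probes differed by 0.58 and 0.50 in the same direction. A further CYR61 probe had 3 spots marked as outliers, all in low-RFI pigs, and was not fitted. It read 1.94, 2.05, 2.19, 2.21 and 2.55 in 5 low-RFI pigs, against 0.63 to 1.84 in 8 high-RFI pigs. With 3 low-RFI pigs missing, it cannot be said whether the lines overlap on this probe. Under another background correction (normexp) the differences of the fitted probes were smaller, 0.52, 0.15 and -0.003, while the median over all probes tested was -0.12. A CYR61 probe is shown because the gene had the smallest p between the lines.
CYR61, dimmest fitted probe: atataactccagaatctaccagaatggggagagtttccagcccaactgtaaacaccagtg

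PLOD2 hydroxylates lysines in the ends of collagen chains, a step before cross-linking. It ranged from -0.43 to 0.12 in low-RFI pigs (median -0.09) and from -0.95 to -0.35 in high-RFI pigs (median -0.46). The difference was 0.36 (SE 0.10, 1.28-fold, unadjusted p = 0.00256), which did not pass (limma, adjusted p = 0.9997). Low-RFI replicates 3 and 6, at -0.43 and -0.40, lay within the range of the high-RFI pigs. MMP16, a membrane-bound metalloproteinase, ranged from -2.93 to -1.34 in low-RFI pigs (median -2.11) and from -3.18 to -1.97 in high-RFI pigs (median -2.82). Its difference of 0.51 (SE 0.23, unadjusted p = 0.0369) did not pass either and was 0.15 with normexp.

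**Figure D2:**
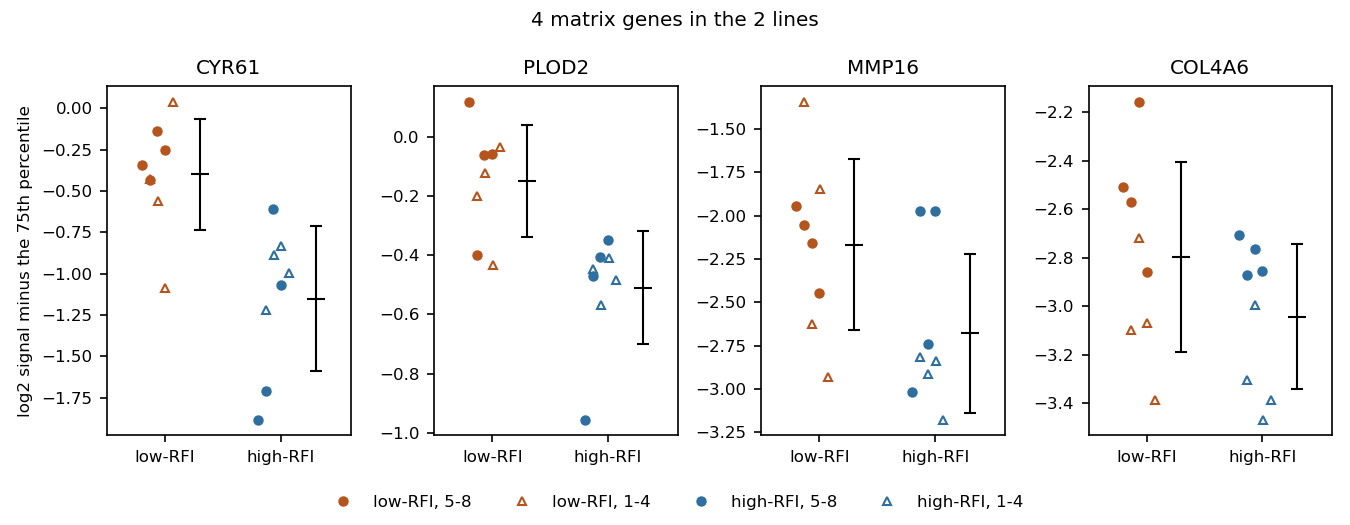
Signal of CYR61, PLOD2, MMP16 and COL4A6 (log2 minus the 75th percentile of the array) in low-RFI pigs and high-RFI pigs. Filled circles are replicates 5 to 8, open triangles replicates 1 to 4, and the bar beside each group its mean with 1 SD (n = 8), and the groups overlap in all 4 genes.

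None of the structural collagens passed between the lines. Among fibrillar collagens, which form the load-bearing fibrils, COL1A2 differed by 0.17 (SE 0.31), COL5A1 by 0.07 (SE 0.11), COL5A2 by -0.08 (SE 0.14) and COL5A3 by -0.35 (SE 0.20). The chains of the beaded-filament collagen VI differed by -0.12 (COL6A1), -0.02 (COL6A2) and -0.03 (COL6A3). For COL6A2, for example, the 95% interval ran from -0.38 to 0.33. Of the proteins that dress the fibrils, DCN, a small proteoglycan, differed by 0.20 (SE 0.12), and all 5 of its probes were between 0.20 and 0.25. SPARC, a collagen-binding glycoprotein, differed by -0.11 (SE 0.10), and its 7 probes lay between -0.14 and -0.04. POSTN, a matricellular protein of growing connective tissue, differed by -0.17 (SE 0.23), and TNC, tenascin C, by 0.08 (SE 0.32). TIMP1 and TIMP2, the measured metalloproteinase inhibitors, differed by 0.01 (SE 0.14) and -0.13 (SE 0.17). ADAMTS1, a secreted protease that cuts proteoglycans, differed by 0.26 (SE 0.25), and MMP14, a membrane-bound collagenase, by -0.16 (SE 0.19). COL12A1, which like COL14A1 binds to the surface of fibrils, differed by 0.30 (SE 0.25), COL14A1 by 0.22 (SE 0.20), COL4A6 by 0.25 (SE 0.17) and COL8A1 by 0.30 (SE 0.30). FBN1 differed by 0.40 (SE 0.26), FN1 by 0.26 (SE 0.21) and MMP9 by -0.21 (SE 0.34). COL10A1, a network collagen best known from growth plate cartilage, ranged from -5.37 to -4.70 in low-RFI pigs and from -5.36 to -4.78 in high-RFI pigs.

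MMP7 varied mostly through single high-RFI arrays, on which COL17A1 also had its highest values among high-RFI pigs. MMP7, a small metalloproteinase made by gland epithelium, read -1.03 and -2.05 on high-RFI replicates 2 and 6, against -4.13 to -3.53 on the other 6 high-RFI arrays, and -4.25 to -3.48 in low-RFI pigs. COL17A1, a transmembrane collagen of epithelial anchoring plaques, read -2.72 and -2.66 on the same 2 arrays and -3.94 to -3.04 on the other high-RFI arrays. EPCAM, a surface protein of epithelial cells, read -0.08 and 1.58 there, against -5.79 to -2.93 on the other 14 arrays. CDH1, another marker of the epithelial list, read -1.27 and 0.32 there. On high-RFI replicate 7, where the list averaged 1.52, EPCAM read -4.11 and CDH1 -4.26. Both values lie within the range of the arrays other than high-RFI replicates 2 and 6. The epithelial markers, of which 7 of 11 were measured, ranged from -1.31 to -0.19 in low-RFI and from -0.75 to 3.31 in high-RFI pigs in their centred mean. They did not all move alike. CLDN4 differed by 0.04 between the lines, against a list median of -1.45. Between the replicate sets CLDN4 differed by 3.04 (adjusted p = 0.0227 in limma), against a list median of 0.33. Without the 4 arrays that stand apart, the line difference of MMP7 was 0.002, against -0.61 (SE 0.37) with them. The part of epithelial RNA in these values was not tested. In such bulk tissue, fewer cells of a type and less RNA per cell cannot be told apart.

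The line difference of several matrix genes had opposite signs in the 2 replicate sets, but no matrix probe passed the test of that change (interaction, limma, adjusted over all probes). Within replicates 5 to 8, 22 of 76 matrix probes had a positive and 54 a negative difference, low-RFI minus high-RFI. Their median was -0.18, against 0.006 over all probes tested (16403 positive, 15685 negative). Before adjustment, 4 matrix probes had p below 0.05 as higher and 1 as lower, against 5.52% of all probes (2.92% higher, 2.6% lower). Within replicates 1 to 4, 59 matrix probes had a positive and 17 a negative difference. Their median was 0.21, against -0.006 over all probes tested (15672 positive, 16416 negative). There 22 matrix probes had an unadjusted p below 0.05, all higher in low-RFI pigs, against 5.62% of all probes (3.45% higher, 2.18% lower). These are counts of probes and not of genes, and the 10 fitted COL14A1 probes, for example, correlated with each other at 0.87 to 0.99. In that set 7 probes, of COL14A1, FBN1 and CYR61, did not overlap between the lines, all higher in low-RFI pigs, against 3.56% of all probes (1.93% higher). No matrix probe passed the adjusted threshold within either set, against 0.0156% of all probes in replicates 1 to 4 and 0.0% in replicates 5 to 8. The test of the change itself, the interaction of line and replicate set, called 0 of 32088 probes (0.0%) and 0 matrix probes in limma. Before adjustment, 19 of 76 matrix probes had p below 0.05, all with the lower line difference in replicates 5 to 8, against 6.8% of all probes (3.32% higher, 3.48% lower). These probes come from 5 genes, COL14A1, COL8A1, FBN1, FN1 and TIMP1, and probes of 1 gene are not independent. The median interaction over the matrix probes was -0.33, against 0.007 over all probes, and the smallest adjusted p among them was 0.708. With 1 probe per gene, 10 genes had a positive and 18 a negative interaction, with a median of -0.21.

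FBN1, which builds the elastic microfibrils and whose protein also yields the hormone asprosin, was measured by 3 probes. In replicates 5 to 8 it read 0.43, 0.91, 0.29 and 0.85 in low-RFI pigs, against 1.16, 0.71, 0.51 and 0.99 in high-RFI pigs. In replicates 1 to 4 it read 1.33, 0.22, 1.65 and 0.33 in low-RFI pigs, against 0.04, -0.19, -0.11 and -0.26 in high-RFI pigs. The lines overlapped in replicates 5 to 8 and did not in replicates 1 to 4, where the high-RFI pigs were the lowest of all. The line difference was -0.22 (SE 0.20) in replicates 5 to 8 and 1.01 (SE 0.32) in replicates 1 to 4, with an interaction of -1.24 (SE 0.40, unadjusted p = 0.00728, limma). The 3 FBN1 probes gave -1.29 to -1.22. A pair of them, which share no run of 15 or more bases, is shown, because like values came from separate stretches of the transcript.
FBN1, brightest probe: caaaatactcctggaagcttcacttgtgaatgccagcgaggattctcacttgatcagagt
FBN1, another probe: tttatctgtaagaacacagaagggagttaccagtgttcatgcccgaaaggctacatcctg

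COL14A1 coats collagen fibrils and links them to other matrix proteins. In replicates 5 to 8 it read 4.93, 5.12, 4.63 and 4.51 in low-RFI pigs, against 4.43, 5.19, 5.04 and 5.32 in high-RFI pigs. In replicates 1 to 4 it read 5.21, 4.45, 5.57 and 4.63 in low-RFI pigs, against 4.43, 4.40, 4.24 and 4.23 in high-RFI pigs. On this probe the lowest low-RFI pig of replicates 1 to 4 lay just above the highest high-RFI pig of that set. The lines did not overlap there on 3 of the 10 fitted COL14A1 probes, and overlapped on the other 7. The interaction was -0.83 (SE 0.34, unadjusted p = 0.0281), and over its 10 fitted probes it ran from -1.28 to -0.83. An eleventh probe, with 5 spots marked as outliers, was not fitted.

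FN1, fibronectin, links cells to collagen through integrins. In replicates 5 to 8 it read 4.66, 5.29, 4.58 and 4.75 in low-RFI pigs, against 4.36, 5.06, 5.26 and 5.45 in high-RFI pigs. In replicates 1 to 4 it read 5.59, 4.70, 5.55 and 5.20 in low-RFI pigs, against 4.92, 4.31, 4.59 and 4.28 in high-RFI pigs. Low-RFI replicate 2 lay within the high-RFI range and the other 3 low-RFI pigs above it. The interaction of FN1 was -0.95 (SE 0.36), that of TIMP1 -0.57 (SE 0.23) and that of COL8A1, a network collagen of vessel walls, -1.15 (SE 0.53). TIMP1 read 3.47, 3.89, 3.40 and 3.38 in low-RFI pigs, against 3.91, 3.81, 3.62 and 3.89 in high-RFI pigs of replicates 5 to 8. In replicates 1 to 4, TIMP1 read 3.80, 3.19, 3.94 and 3.34 in low-RFI pigs, against 3.27, 3.31, 3.26 and 3.25 in high-RFI pigs. Low-RFI replicates 1 and 3 were thus high for TIMP1, FBN1, FN1 and COL14A1 alike. The count of matrix probes with an unadjusted interaction p under 0.05 depended on single pigs. With 1 array left out it ran from 10 to 28, against 19 with all: it was 28 without low-RFI replicate 2 (2 of them with the higher line difference in replicates 5 to 8), 27 without low-RFI replicate 6 and 22 without high-RFI replicate 5. It was 10 without low-RFI replicate 1 or 8, 11 when low-RFI replicate 3 or 7 was left out, 12 when high-RFI replicate 8 was, and 10 without the 4 arrays that stand apart. The share of all probes moved as well, from 6.8% with all arrays. Without low-RFI replicates 2 and 6 it was 7.57% and 8.43%, and without high-RFI replicates 5 and 8 it was 6.03% and 7.53%. Without low-RFI replicates 1, 8, 3 and 7 it was 5.56%, 5.85%, 6.8% and 6.04%. Without the 4 arrays it was 3.58%.

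**Figure D3:**
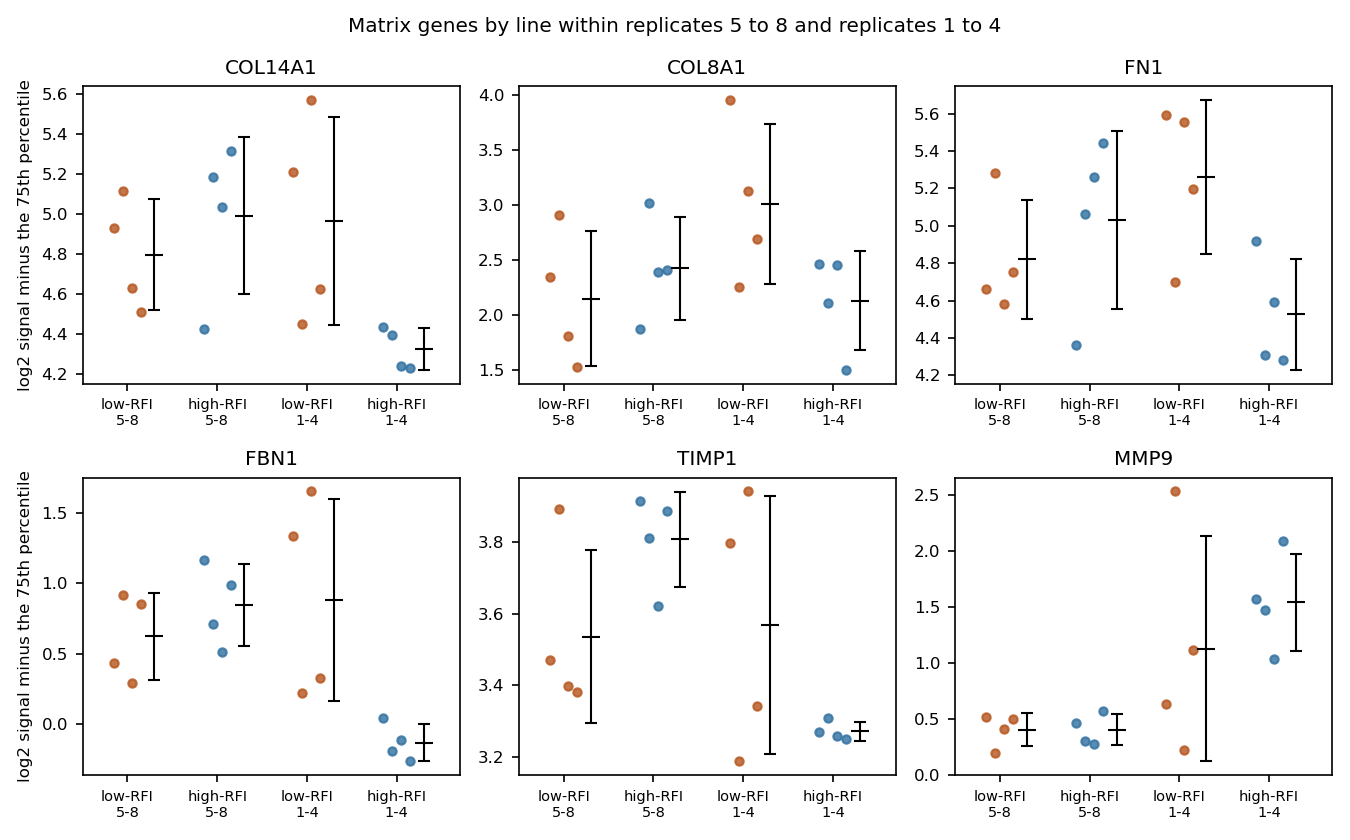
Signal of COL14A1, COL8A1, FN1, FBN1, TIMP1 and MMP9 (log2 minus the 75th percentile of the array) by line within replicates 5 to 8 and within replicates 1 to 4. Points are pigs (4 per group) and bars are means with 1 SD. High-RFI pigs of replicates 1 to 4 are low and close together for COL14A1 (4.33 ± 0.10), FBN1 (-0.13 ± 0.13) and TIMP1 (3.27 ± 0.03).

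**Figure D4:**
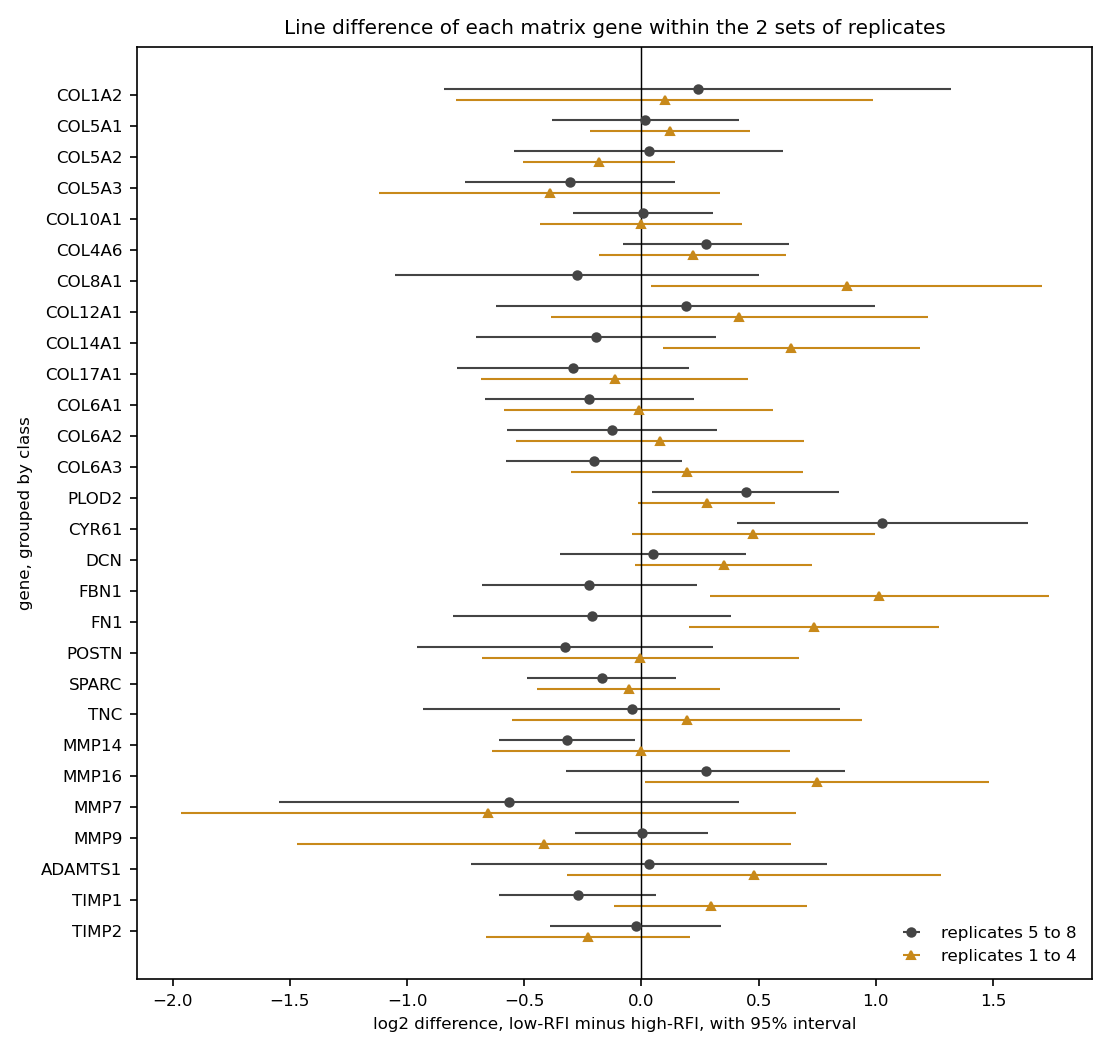
Log2 line difference (low-RFI minus high-RFI) of each of the 28 genes within replicates 5 to 8 (circles) and within replicates 1 to 4 (triangles), with 95% intervals from limma (4 pigs per line in each). COL8A1, COL14A1, FBN1 and FN1 lie above 0 in replicates 1 to 4 and below 0 in replicates 5 to 8, where their intervals include 0.

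The comparison of replicates 5 to 8 with replicates 1 to 4, with line in the model, called 5 of 76 matrix probes in limma, with 2 higher and 3 lower, against 5.04% of all probes tested (1.86% higher, 3.18% lower), so the matrix probes were called at about the rate of the array. Before adjustment 14 matrix probes had p below 0.05, 8 of them higher, against 23.4% of all probes (9.14% higher). No matrix probe separated the replicate sets without overlap, as 0.371% of all probes did. None of the 5 calls passed with normexp, where 0.053% of all probes were called, and none without the 4 arrays that stand apart, where 0 of all probes were. COL4A6, a chain of the basement membrane collagen IV, was higher in replicates 5 to 8. It read -2.87 to -2.16 there, with a median of -2.73, against -3.47 to -2.72 in replicates 1 to 4, with a median of -3.20. The means were -2.66 ± 0.24 and -3.18 ± 0.25 in replicates 5 to 8 and 1 to 4 (SD, n = 8 each). The sets overlapped, and the difference was 0.52 (SE 0.11, 1.43-fold, adjusted p = 0.0233 in limma). It kept an adjusted p under 0.05 in 16 of 16 fits that left out 1 array, but was 0.28 with normexp (adjusted p = 0.945).
COL4A6, its single probe: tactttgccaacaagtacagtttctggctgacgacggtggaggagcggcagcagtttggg

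MMP9, a gelatinase released by neutrophils and macrophages, was lower in replicates 5 to 8. Its brighter probe read 0.52, 0.19, 0.41 and 0.49 in low-RFI and 0.46, 0.30, 0.28 and 0.57 in high-RFI pigs of replicates 5 to 8. In replicates 1 to 4 it read 0.63, 2.53, 0.22 and 1.11 in low-RFI and 1.57, 1.47, 1.03 and 2.09 in high-RFI pigs. The replicates 5 to 8 lay in a narrow band, and low-RFI replicate 3 was the single pig of replicates 1 to 4 inside it. The difference was -0.93 (SE 0.26, 1.91-fold, adjusted p = 0.0483 in limma). The dimmer probe gave -3.23 (SE 0.74, adjusted p = 0.0258), but was well above background on 2 of 4 low-RFI and 2 of 4 high-RFI arrays of replicates 5 to 8, so that its size there is uncertain; with normexp it was -0.94. Of 6 measured macrophage markers, 4 had a positive and 2 a negative difference, with a median of 0.12. LYZ alone was called, at -1.88, while TYROBP was at -0.15, AIF1 at 0.08, CD14 at 0.16, C1QA at 0.29 and CD163 at 0.55. The centred mean of the 6 ranged from -0.90 to 1.35 in replicates 5 to 8 and from -0.33 to 0.59 in replicates 1 to 4. The part of macrophages in the MMP9 difference was not tested. The brighter probe stayed past the threshold in 2 of 16 fits that left out 1 array (without low-RFI replicate 1 or 3). The dimmer probe passed in 12, and failed when low-RFI replicate 4 was left out, or high-RFI replicate 1, 4 or 8.
MMP9, dimmer probe: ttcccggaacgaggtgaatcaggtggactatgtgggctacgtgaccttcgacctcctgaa

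TIMP2, which inhibits metalloproteinases and also takes part in activating MMP2 at the cell surface, was lower in replicates 5 to 8. It ranged from 2.01 to 2.56 there, with a median of 2.44 and a mean of 2.38 ± 0.20, against 2.48 to 3.21 in replicates 1 to 4, with a median of 2.91 and a mean of 2.89 ± 0.28 (SD, n = 8 each). The difference was -0.51 (SE 0.12, 1.42-fold, adjusted p = 0.0323 in limma), and it passed in 7 of 16 fits with 1 array left out, the adjusted p reaching 0.0689. It did not pass when low-RFI replicate 2, 4 or 5 was left out, nor when high-RFI replicate 2, 3, 4, 6, 7 or 8 was.
TIMP2, its single probe: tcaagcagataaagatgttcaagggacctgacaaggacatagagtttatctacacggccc

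The fifth call was 1 of 6 COL6A3 probes, and the others did not share it. The called probe ranged from 3.74 to 4.14 in replicates 5 to 8 (median 3.88), against 2.64 to 4.03 in replicates 1 to 4 (median 3.35). Its difference was 0.57 (SE 0.15, adjusted p = 0.0449 in limma), while the remaining COL6A3 probes differed by -0.02 to 0.14. It passed in 2 of 16 fits with 1 array left out, those without low-RFI replicate 1 or 3. The called probe and 1 that was not called are printed to show that they target separate stretches.
COL6A3, called: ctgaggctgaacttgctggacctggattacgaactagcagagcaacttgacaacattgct
COL6A3, not called: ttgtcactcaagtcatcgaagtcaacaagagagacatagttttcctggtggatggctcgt

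Next after the called probes by p came probes of POSTN, TNC, MMP14, CYR61 and COL5A2. POSTN differed by 0.34 to 0.71 over its 6 probes, with 4 at an unadjusted p under 0.05, and TNC by -0.93 and -0.81 over its 2 probes; none passed. MMP14 differed by 0.43 (SE 0.16, adjusted p = 0.121 in limma). A CYR61 probe differed by -0.38 (SE 0.14, adjusted p = 0.122 in limma), with the brightest fitted CYR61 probe at -0.06. A COL5A2 probe differed by 0.41 (SE 0.16, adjusted p = 0.131 in limma), with the brightest COL5A2 probe at -0.10. The brighter TNC probe read -1.54, -0.84, -2.43 and -0.48 in low-RFI and -1.54, -1.43, -1.03 and -1.12 in high-RFI pigs of replicates 5 to 8. In replicates 1 to 4 it read 0.13, -1.43, -0.28 and -0.000967 in low-RFI and -0.80, -0.67, -0.23 and -0.65 in high-RFI pigs. On this probe every high-RFI pig of replicates 5 to 8 lay below those of replicates 1 to 4, and the low-RFI pigs overlapped. On the other TNC probe the sets overlapped in both lines.

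The comparison of the replicate sets was also made in each line. Within high-RFI pigs, 12 of 76 matrix probes were called by limma, 10 higher and 2 lower in replicates 5 to 8, against 4.71% of all probes (1.52% higher, 3.18% lower). They were 3 probes each of COL14A1, FBN1 and TIMP1, 1 of COL6A3 and both of MMP9. Within low-RFI pigs 0 matrix probes were called, as were 0 of all probes (0.0%), with 4 matrix probes at an unadjusted p below 0.05, 1 higher and 3 lower, against 8.44% of all probes (3.16% higher, 5.27% lower). The same count within high-RFI pigs was 32, with 28 higher and 4 lower, against 23.3% of all probes (9.07% higher, 14.2% lower). It counts probes and not genes, and probes of 1 gene are not independent. In high-RFI pigs 20 of 76 probes did not overlap between the sets, 17 of them higher in replicates 5 to 8, against 16.4% of all probes (5.86% higher). FBN1 differed by 0.98 (SE 0.16, adjusted p = 0.0196) within high-RFI pigs and by -0.26 (SE 0.34) within low-RFI pigs. TIMP1 differed by 0.54 (SE 0.10, adjusted p = 0.0297) within high-RFI pigs and by -0.03 (SE 0.21) within low-RFI pigs. The test of the difference between the lines is the interaction given above, which no probe passed. The comparisons within a line or a set use the same arrays as the interaction, so they are not separate evidence.

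The level of adipocyte markers was correlated with several of these genes. Their centred mean over the 9 measured genes ranged from -0.19 to 0.26 in low-RFI pigs of replicates 5 to 8, from -0.41 to -0.15 in high-RFI pigs of replicates 5 to 8, from -0.37 to 0.38 in low-RFI pigs of replicates 1 to 4 and from 0.15 to 0.33 in high-RFI pigs of replicates 1 to 4. The high-RFI pigs of replicates 1 to 4 thus had high adipocyte markers and low FBN1, TIMP1 and COL14A1, and low-RFI replicates 1 and 3, at -0.21 and -0.37, the opposite. Other lists also differed. Endothelial markers read 0.07 to 0.20 in those high-RFI pigs, and smooth muscle markers -0.75, 1.01, 0.97 and 0.86. Low-RFI replicates 1 and 3 read 0.11 and -0.28 for endothelium and 1.11 and -0.56 for smooth muscle. Fibroblast and preadipocyte markers, 3 of 12 measured, read 0.61 and 0.30 there, against -0.13 to 0.06 in those high-RFI pigs. Over the 16 pigs the adipocyte level was negatively correlated with 21 of the 28 matrix genes and positively with 7, a relation computed after the values were seen. After Benjamini-Hochberg adjustment over the 28 relations, 7 negative and 1 positive Pearson correlations had an adjusted permutation p under 0.05. By rho, POSTN (adjusted permutation p = 0.058) and COL14A1 were no longer among them. The other probes of the array were not correlated with this level, so the counts cannot be called particular to matrix genes. TIMP1 had r = -0.89 (adjusted permutation p = 0.00196) and rho = -0.84 (adjusted permutation p = 0.00448), and r = -0.87 without the 2 pigs farthest from the median, high-RFI replicate 6 and low-RFI replicate 2. Within replicates 5 to 8 it was -0.71, and within replicates 1 to 4 -0.95. MMP9 went the other way, with r = 0.76 (adjusted permutation p = 0.00399) and rho = 0.76 (adjusted permutation p = 0.0077), 0.70 without the same 2 pigs, and 0.39 and 0.81 within replicates 5 to 8 and 1 to 4. For COL14A1 r was -0.72 (adjusted permutation p = 0.0102) and rho -0.57 (adjusted permutation p = 0.0649), -0.68 without those 2 pigs, and -0.34 and -0.86 within replicates 5 to 8 and 1 to 4. All signals of an array share 1 scale, and with quantile scaling the 3 values of r were -0.85, 0.77 and -0.71. The permutations ignored line and replicate set, between which the adipocyte level differed. The permutation p thus cannot tell a relation among pigs from a shift shared by the groups. The part of the adipocyte share of the tissue in the matrix differences was not tested.

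**Figure D5:**
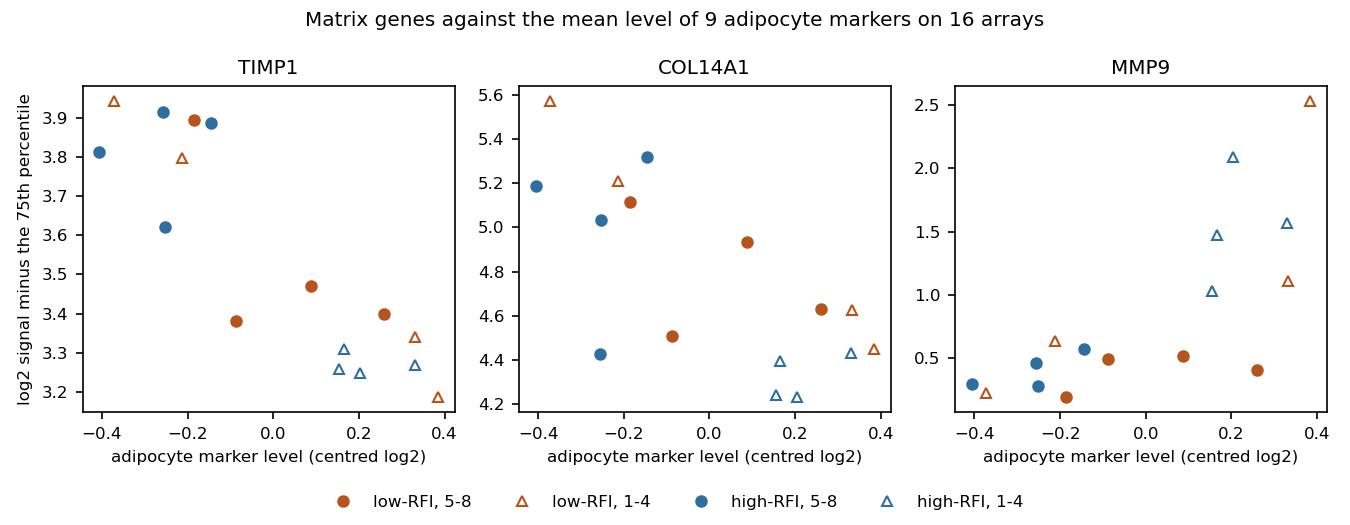
Signal of TIMP1, COL14A1 and MMP9 (log2 minus the 75th percentile of the array) against the mean level of 9 adipocyte markers (log2, each centred on its mean over arrays) on the 16 arrays. Points are pigs, coloured by line, filled for replicates 5 to 8 and open for replicates 1 to 4, and the relation falls for TIMP1 (r = -0.89) and COL14A1 (r = -0.72) and rises for MMP9 (r = 0.76).

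The genes whose pattern was most like that of COL14A1, a gene picked for this after its values were seen, were by Pearson's r FN1, MMP16 and TIMP1 among the 27 other matrix genes. By Spearman's rho, FBN1 (0.78) came before TIMP1 (0.74). FN1 had r = 0.85 and rho = 0.86 over the 16 pigs, MMP16 r = 0.82 and rho = 0.86, and TIMP1 r = 0.80 and rho = 0.74, with adjusted permutation p of 0.00198, 0.00275 and 0.00403 for r and 0.00148, 0.00132 and 0.0103 for rho, over a family of 33 relations that includes 6 marker lists. Without low-RFI replicate 3 and high-RFI replicate 8, the pigs farthest from the median, r was 0.79, 0.80 and 0.72. FN1 held within replicates 5 to 8 (0.88) and within replicates 1 to 4 (0.88). MMP16 had 0.63 and 0.87, and TIMP1 0.44 and 0.97, within replicates 5 to 8 and 1 to 4. FBN1, at r = 0.77 over the 16 pigs, had -0.04 within replicates 5 to 8 and 0.99 within replicates 1 to 4, so that its relation rests on replicates 1 to 4. Here too the permutations ignored line and replicate set. The permutation p of these relations thus cannot tell a relation among pigs from a shift shared by the groups.

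Genes of the pathways around these members were read from lists in which PLOD2 was the only tested gene that matched the name rule. In the line comparison 0 of the measured genes of any list passed in limma (0.0% of all probes). After PLOD2, the smallest p was that of P4HA1, which hydroxylates prolines so that the collagen helix is stable, at 0.41 (SE 0.14, unadjusted p = 0.00960). Of the listed genes, 4 of 16 in the collagen folding list, 8 of 17 matrix receptors, 11 of 21 TGF-beta signalling genes, 1 of 10 laminins and basement membrane genes, 8 of 22 other matrix proteins and 6 of 13 other proteases and inhibitors could be tested. In the comparison of the replicate sets (5.04% of all probes called), 1 matrix receptor was higher in replicates 5 to 8, SDC4, a heparan sulphate proteoglycan, at 0.47, and so was the laminin chain LAMB1 at 0.75. Lower in replicates 5 to 8 were 3 other matrix proteins, SPP1 (osteopontin) at -1.86, VTN (vitronectin) at -0.81 and MATN2 (matrilin 2) at -0.56. None of the folding, TGF-beta or protease genes passed in the line, set or interaction fit, and no pathway gene passed the interaction.

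Of the 8 probes that matched by name but were not kept, MMP3 was nearest the limit with 6 arrays well above background, MMP12 had 3, COL4A3 and TIMP-4 had 2 each, the 2 MMP25 probes 0 and 1, and MMP1 and MMP17 0. The RefSeq accession of both MMP25 probes belongs to MMP20 in the RefSeq gene table, so the identity under that name is uncertain. No kept probe lay close to the limit of 8: the lowest were the dimmer MMP9 probe with 12 arrays and a COL17A1 probe with 15, and the remaining kept probes had 16. No probe carried the name COL1A1, COL3A1, LOX, ELN, LUM, BGN, THBS2 or FBLN, so these central matrix genes are not analysed here.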

How the data were processed

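RNA of 16 pigs was hybridised to 1-colour arrays, 1 pig per array, with 150 ng RNA per labelling, per the labels' protocols. The deposited scanner files hold processed intensity values, background-corrected by Agilent Feature Extraction 10.7.3.1 per the file headers; the submitters' processing notes name R 2.10.0. The authors' value table holds log2 values that match log2 of the processed signal minus a column median, and served as an alternative. Spots of 1 probe were averaged, outlier spots were left out (578 missing values, 0.113%), and log2 signals were set against the 75th percentile of each array. Probes well above background on at least 8 arrays were kept. A condition not in the planned design, at least 6 values per line and per replicate set (5 to 8 or 1 to 4), left 32088 probes; it removed 1 probe each of COL14A1 and CYR61. CYR61 is therefore represented by its brightest fitted probe.

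Differences were tested with limma 3.58.1 (R 4.3.3; lmFit, eBayes, Benjamini-Hochberg over all 32088 probes, threshold 0.05) for line, for replicate set with line in the model, and for their interaction. On simulated data with 32088 probes, each drawn independently, the line fit recovered 26.9%, 76.1% and 93.9% of probes changed 1.5-, 2- and 4-fold. It also called 9 unchanged probes. Probes that vary together over arrays were not simulated, so these rates need not hold for the real arrays. Correlations used 100000 permutations (scipy 1.17.1). The number of arrays limits the precision. Members and lists were chosen with earlier results of these data known. Genes were named by a rule: a fixed set of matrix genes, those with the smallest p per class in the line and replicate-set comparisons, those past the threshold, and the most variable of each class. Same-numbered pigs of the lines did not deviate together (r from -0.293 to 0.319 over 31665 probes), so replicate numbers were not taken as pairs.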

Additional observations from a re-analysis of the deposited data

Results flagged for a closer look

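Of 56 groups of 8 pigs (28 genes in 2 lines), 3 held a pig far from the others by Dixon's criterion, which chance meets in about 1 of 20 groups. COL5A2, a fibrillar collagen chain, read 4.75 on high-RFI replicate 5, against 5.62 to 5.81 in the other high-RFI pigs. PLOD2 read -0.955 on the same array, against -0.568 to -0.348 in the other high-RFI pigs. MMP9 read 2.53 on low-RFI replicate 2, against 0.192 to 1.11 in the other low-RFI pigs.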

How the results depend on the processing

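No matrix probe was called between the lines or in the interaction under any alternative tried, and the line count over all probes was 0 except 5 within replicates 1 to 4 and 1 without low-RFI replicate 4. The comparison of the replicate sets moved more. It called 1616 probes and 5 matrix probes, against 17 and 0 with normexp, 838 and 2 with no filter on dim probes, 0 and 0 without the 4 arrays that stand apart, 0 and 0 within each slide and within low-RFI pigs, and 1511 and 12 within high-RFI pigs. With 1 array left out the counts ran from 573 to 4743 and from 1 to 10. The highest counts, 4743 and 10, came without low-RFI replicate 3. Lower counts over all probes were 601 without low-RFI replicate 2, 634 without 4, 934 without 5 and 833 without 7, and 784, 921, 674, 573, 1014, 714 and 764 without high-RFI replicates 1, 2, 3, 4, 6, 7 and 8. Matrix calls were 1 when low-RFI replicate 4 was left out, and also for high-RFI replicates 4 and 8. They were 2 for low-RFI replicates 2 and 5 and high-RFI replicates 1, 2, 3, 6 and 7, and 3 for low-RFI replicates 6 and 7. The replicate block called 0 probes between the lines. Slide as a random block was not run for the comparison of the replicate sets and the interaction, because each slide holds both sets, and a fixed block was used instead. With that fixed block the comparison of the replicate sets called 1573 probes and 5 matrix probes, and the interaction 0 and 0. A fit within 1 slide holds only 1 array of every line and set, so its 0 calls say little. The differences that changed sign follow, and the cause was not tested. Within slide 1, the line difference was -0.25 for ADAMTS1, -0.35 for COL12A1, -0.27 for COL14A1, -0.27 for COL1A2, -0.033 for COL5A1, -0.71 for COL8A1, -0.12 for FBN1, -0.35 for FN1, 0.54 for MMP9, 0.084 for POSTN, 0.035 for SPARC, -0.25 for TIMP1, 0.32 for TIMP2, -0.82 for TNC. Within slide 1, the set difference was -0.063 for COL10A1, 0.43 for COL17A1, 0.014 for COL5A2, 0.055 for COL8A1, 0.77 for MMP7. Within slide 4, the line difference was -0.095 for ADAMTS1, -0.19 for COL10A1, -0.15 for COL12A1, -0.21 for COL14A1, 0.23 for COL17A1, -0.90 for COL1A2, -0.17 for COL5A1, -0.32 for COL8A1, -0.11 for DCN, -0.044 for FN1, -0.28 for MMP16, 0.044 for MMP7, 0.0017 for MMP9, -0.21 for TIMP1. Within slide 4, the set difference was -0.76 for ADAMTS1, 0.017 for DCN. With normexp, the line difference was -0.31 for COL10A1, -0.085 for COL4A6, 0.045 for COL5A2, 0.15 for COL6A3, 2.0e-05 for SPARC. With normexp, the set difference was 0.051 for COL17A1, 0.012 for CYR61, -0.0020 for FN1. With quantile scaling, the line difference was -0.0047 for COL10A1, -0.0059 for TIMP1. Within replicates 1 to 4, the line difference was -0.0017 for COL10A1, 0.080 for COL6A2, 0.19 for COL6A3. Within replicates 5 to 8, the line difference was -0.19 for COL14A1, 0.031 for COL5A2, -0.27 for COL8A1, -0.22 for FBN1, -0.21 for FN1, 5.4e-04 for MMP9, -0.27 for TIMP1, -0.042 for TNC. Without the 4 arrays that stand apart, the line difference was 0.019 for COL17A1, 0.042 for COL6A2, 0.061 for COL6A3, 0.017 for MMP14, 0.0020 for MMP7, -0.14 for TNC. Without the 4 arrays that stand apart, the set difference was 0.10 for COL5A2, 0.19 for CYR61, 0.070 for SPARC. Within slide 2, the line difference was 0.17 for COL5A2, 0.27 for COL6A1, 0.23 for COL6A2, 0.21 for COL6A3, 0.037 for POSTN. Within slide 2, the set difference was -0.23 for COL10A1, -0.29 for COL12A1, -0.12 for COL14A1, -0.95 for COL1A2, -0.33 for COL5A1, -0.28 for COL6A1, -0.58 for COL6A2, -0.39 for COL6A3, -0.44 for FN1, -0.35 for MMP16, -0.034 for PLOD2, -0.089 for POSTN. Within slide 3, the line difference was 0.40 for COL6A1, 0.42 for COL6A2, 0.19 for COL6A3, 0.33 for MMP14, 0.17 for MMP7, 0.19 for POSTN. Within slide 3, the set difference was -0.053 for ADAMTS1, 0.18 for COL5A2, 0.12 for COL5A3, 0.34 for COL8A1, 0.52 for CYR61, 0.39 for SPARC. With the authors' value table, the line difference was 8.8e-04 for COL6A3. With the replicate number as a block, the line difference was 0.031 for COL6A3. Within low-RFI pigs, the set difference was -0.18 for ADAMTS1, -0.17 for COL14A1, 0.0070 for COL5A2, -0.058 for COL6A2, -0.045 for COL6A3, 0.22 for CYR61, -0.26 for FBN1, -0.44 for FN1, -0.032 for TIMP1. Within high-RFI pigs, the set difference was 0.0064 for COL17A1, 0.29 for COL8A1, 0.020 for DCN, -0.068 for PLOD2, 0.027 for SPARC. With 1 array left out, the sign turned within these ranges: ADAMTS1 set difference -0.057 to 0.18, COL10A1 set difference -0.019 to 0.085, COL10A1 line difference -0.047 to 0.049, COL17A1 set difference -0.19 to 8.4e-04, COL1A2 line difference -0.018 to 0.35, COL5A2 set difference -0.14 to 0.022, COL6A2 set difference -0.026 to 0.12, COL6A2 line difference -0.090 to 0.046, COL6A3 line difference -0.084 to 0.031, CYR61 set difference -0.17 to 0.051, FN1 set difference -0.068 to 0.12, PLOD2 set difference -0.028 to 0.084, SPARC set difference -0.091 to 0.014, TIMP1 line difference -0.044 to 0.065, TNC line difference -0.066 to 0.30.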
